A study of Mus musculus with 6 samples.

Results

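The nuclear genes of the mitochondrial respiratory complexes were examined in the irradiated mouse submandibular gland. They were taken by symbol from the deposited gene table: entries beginning with Ndufa, Ndufb, Ndufc, Ndufs or Ndufv (complex I), Sdha to Sdhd (complex II), Uqcr (complex III), Cox4 to Cox8 (complex IV) or Atp5 (complex V), without pseudogene symbols. This gave 96 genes of 24394 entries with a symbol. By complex there were 38 genes of complex I, 4 of complex II, 8 of complex III, 18 of complex IV and 15 of complex V. The prefixes also took in 11 assembly factors (Ndufaf1 to Ndufaf7 and Sdhaf1 to Sdhaf4) and Atp5s and Atp5sl, a pair of ATP synthase-named genes that are not core subunits. Ndufa4 is counted with complex I by its symbol, although its protein is now placed in complex IV. Of the 96 genes, 92 had a mean of at least 1 FPKM (fragments per kilobase of transcript, scaled to sequencing depth) over the 6 libraries and were tested. Cox4i2, Cox6a2, Cox7b2 and Cox8c did not reach that level, and Ndufs5 received no fold change for the reason given below, which left 91 genes with a fold change.

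The libraries came from total RNA of salivary gland from wild-type C57BL/6 mice, and the series text names the submandibular gland. Unirradiated glands (control, T0) were compared with glands exposed to 5 Gy of ionizing radiation and taken 6 h or 24 h later. Each group had 2 libraries. The sources used here do not give the age and sex of the mice, the field irradiated or the hour of collection. Separate animals are not stated for the libraries of a group, and p-values therefore cover only the spread among these samples, which may be technical.

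Complexes I and II pass electrons from NADH and from succinate to ubiquinone, complex III passes them on to cytochrome c, and complex IV hands them to oxygen. Complexes I, III and IV pump protons across the inner mitochondrial membrane, and complex V, the ATP synthase, uses the gradient to make ATP. Complex II is also an enzyme of the tricarboxylic acid (TCA) cycle and is encoded by nuclear genes alone. The other complexes also hold subunits encoded in the mitochondrial genome, which were not analysed here. In the submandibular gland the striated ducts, which reabsorb salt from saliva, are known for their dense columns of mitochondria.

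Control and 6 h values were multiples of whole reads, which gave 11826335 to 12577222 reads per library. Over these 4 libraries the genes of the set held 0 to 13600 reads each, with a median of 671, so counting error was small for most of them. The 24 h values were written in another form and their depth is unknown. They were taken to come by a different quantification route, and for that reason 6 h was compared with control first. The summed level of 8 acinar genes was 76348.8 to 136338.9 FPKM in all libraries. Most of it came from Prol1 and Pip, and Smgc was at 0 and Bpifa2 at 5.31 FPKM in control replicate 1, against 251 and 21485.8 FPKM in replicate 2. The libraries differed in markers of neighbouring glands: 6 genes of sublingual and parotid gland, which did not all vary together, summed to 26.6 FPKM in control replicate 1 but 41494.4 FPKM in replicate 2, to 23246.2 and 46723.1 FPKM at 6 h, and to 1939.6 and 42123.3 FPKM at 24 h. Results are therefore also given without control replicate 1.

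In control glands the respiratory complex genes together held 1.045% and 1.042% of the FPKM sum. The highest was Atp5b, which encodes the catalytic beta subunit of ATP synthase, at 586.5 and 534.4 FPKM. Next came 3 cytochrome c oxidase genes, with Cox7c at 475.2 and 453.7 FPKM, Cox8a at 380.7 and 344.0 FPKM and Cox6a1 at 326.6 and 316.7 FPKM. These 4 genes did not overlap, and Cox4i1 followed at 314.7 and 295.2 FPKM, just under the lower Cox6a1 library. Neighbours further down did overlap: the libraries of Ndufa4 overlapped with those of Cox4i1 and of Atp5a1 (285.8 and 263.1 FPKM). Among complex I genes the highest were Ndufa4 (254.5 and 300.9 FPKM), Ndufb9 (157.5 and 171.5 FPKM) and Ndufb8 (137.2 and 137.6 FPKM), the last 2 being accessory subunits of the membrane arm. In complex III they were Uqcrb (265.5 and 257.2 FPKM), Uqcrh (158.5 and 172.2 FPKM) and Uqcrq (140.2 and 142.3 FPKM). In complex II the highest were its iron-sulfur subunit gene Sdhb (110.3 and 112.6 FPKM), its membrane anchor Sdhc (92.2 and 96.4 FPKM) and its flavoprotein Sdha (76.8 and 74.8 FPKM). The median over its 4 genes was 84.5 and 85.6 FPKM. The assembly factors, which build the complexes and are not part of them, were much lower. Ndufaf2, highest by its mean but overlapping with Ndufaf3 and Ndufaf1, was at 6.08 and 9.82 FPKM, and the median over the 11 was 4.98 and 5.68 FPKM, against 53.9 and 55.1 FPKM over complex I.

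Promoters are shown as examples, for some genes whose response differed at 6 h or 24 h and for a ubiquitous and a tissue-restricted isoform of subunit 8 of cytochrome c oxidase. They carry motifs more often than the set, in which each motif was in at most 12.5% of promoters. They are RefSeq sequences of GRCm38.p6, from 250 bases before to 50 bases after the annotated start, printed on the strand of the gene, and 80 of the 96 genes had one. Capitals mark exact matches, on either strand, to 4 motifs: the palindrome of NRF1, CCGGAAGT of GABPA (NRF2), AAGATGGC of YY1 and TNAAGGTCA of the estrogen-related receptors, all of them factors known to act on respiratory genes. In the first sequence the capitals are the estrogen-related receptor motif on the opposite strand, in the second the NRF1 palindrome, spelled by those capitals, in the third the YY1 motif and in the fourth GABPA motifs on the opposite strand. The last holds none of the 4 motifs.
Sdhd (chr9:50603800-50604099, minus strand, complex II): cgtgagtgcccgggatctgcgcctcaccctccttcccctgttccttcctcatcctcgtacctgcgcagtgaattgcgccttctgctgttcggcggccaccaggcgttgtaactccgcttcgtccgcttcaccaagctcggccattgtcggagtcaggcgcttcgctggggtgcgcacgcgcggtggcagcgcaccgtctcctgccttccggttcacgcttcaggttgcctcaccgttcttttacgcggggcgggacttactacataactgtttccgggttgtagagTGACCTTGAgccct
Atp5k (chr5:108434350-108434649, minus strand, complex V): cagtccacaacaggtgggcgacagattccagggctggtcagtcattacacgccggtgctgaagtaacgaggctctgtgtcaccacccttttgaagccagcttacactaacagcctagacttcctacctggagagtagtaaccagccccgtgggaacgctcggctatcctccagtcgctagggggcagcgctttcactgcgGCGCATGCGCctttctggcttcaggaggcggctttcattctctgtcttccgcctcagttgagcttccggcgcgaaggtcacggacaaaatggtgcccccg
Ndufs4 (chr13:114388045-114388344, minus strand, complex I): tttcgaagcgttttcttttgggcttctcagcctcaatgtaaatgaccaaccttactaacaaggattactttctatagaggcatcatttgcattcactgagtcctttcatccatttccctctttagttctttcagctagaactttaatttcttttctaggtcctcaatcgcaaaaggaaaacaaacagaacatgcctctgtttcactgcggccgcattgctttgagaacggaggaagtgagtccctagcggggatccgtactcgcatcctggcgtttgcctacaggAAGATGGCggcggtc
Cox8a (chr19:7217567-7217866, minus strand, complex IV): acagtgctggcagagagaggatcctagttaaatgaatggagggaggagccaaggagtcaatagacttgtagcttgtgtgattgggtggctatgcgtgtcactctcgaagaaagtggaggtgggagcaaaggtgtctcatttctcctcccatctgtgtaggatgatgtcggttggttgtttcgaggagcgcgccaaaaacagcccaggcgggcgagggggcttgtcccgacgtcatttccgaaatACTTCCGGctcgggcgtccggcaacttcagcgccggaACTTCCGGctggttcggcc
Cox8b (chr7:140900397-140900696, minus strand, complex IV, tissue-restricted): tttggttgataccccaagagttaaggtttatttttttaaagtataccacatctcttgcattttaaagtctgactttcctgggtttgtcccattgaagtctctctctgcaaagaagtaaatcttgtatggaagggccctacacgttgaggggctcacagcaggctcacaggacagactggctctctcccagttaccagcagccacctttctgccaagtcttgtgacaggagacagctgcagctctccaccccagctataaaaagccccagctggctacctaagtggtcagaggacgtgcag
The YY1 motif was in 10 of the 80 promoters (12.5%) and in 2.88% of the 27025 promoters of all genes. The NRF1 motif was in 7 (8.75%, against 0.977%), the GABPA motif in 5 (6.25%, against 4.0%) and the estrogen-related receptor motif in 3 (3.75%, against 1.26%). Of the 10 promoters with the YY1 motif, 7 belonged to complex I, among them Ndufa3, Ndufb8 and Ndufs4. These shares describe the letters in the window and are no evidence of binding in the gland.

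At 6 h the respiratory complex genes lay slightly but widely below control. Of the 91 genes, 83 had a log2 fold change below 0 (91.2%, against 54.0% of all 11424 genes with a fold change), and 63 had both 6 h libraries below both control libraries (69.2%, against 25.2%). In the opposite direction 3 genes lay above both control libraries, against 19.5% of all genes. The median log2 fold change was -0.23, which is 14.9% lower, beside -0.02 over all genes. No gene of the set passed the test: at an adjusted p under 0.05 limma called 0 genes in either direction, where 0.674% of all genes were called higher and 0.324% lower. At an unadjusted p under 0.05, 27 genes were lower and 2 higher (8.55% and 6.23% of all genes). A limma-voom fit on the recovered reads also called 0, with 20 genes at an unadjusted p under 0.05.

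The shift was present in each 6 h library against the control mean, with a median of -0.26 in replicate 1 (84 of 91 genes below 0) and -0.16 in replicate 2 (76 of 91). Without 6 h replicate 1 the median was -0.16. With control replicate 1 left out, the median was -0.23 and 77 of 91 genes had both 6 h libraries below the remaining control library (39.6% of all genes). Scaled by median-of-ratios factors, 61 genes (67.0%, against 23.4%) lay below without overlap. Among genes of like level, at 100 to 1000 FPKM in control, 29 of the 34 members (85.3%) lay below without overlap, against 28.4% of the 261 others. At 50 to 100 FPKM the shares were 76.9% of 26 members and 31.5% of 397 others. At 1 to 10 FPKM they were 3 of 15 members and 22.9% of 6987 others, and at 10 to 50 FPKM 68.8% of 16 members and 29.6% of 3262 others.

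Complex II, succinate dehydrogenase, had the lowest median of the 5 complexes at 6 h, and the libraries of its 4 genes did not overlap with control. Sdhd, the small membrane anchor (chromosome 9, 50596357 to 50603812, GRCm38), was at 44.3 and 46.1 FPKM in the controls and 32.1 and 33.5 FPKM at 6 h, a log2 fold change of -0.45 ± 0.09 (SE, limma adjusted p = 0.0957). Sdhb was at 110.3 and 112.6 FPKM in the controls and 81.7 and 79.4 FPKM at 6 h, a log2 fold change of -0.46 ± 0.10 (adjusted p = 0.127). In both genes the 6 h libraries stood clear below the control libraries, although neither difference passed the test. Sdhc was at 92.2 and 96.4 FPKM and then 76.4 and 77.8 FPKM (log2 fold change -0.29 ± 0.10). Sdha, which binds succinate and FAD, was at 76.8 and 74.8 FPKM and then 66.8 and 65.0 FPKM (-0.20 ± 0.09). The complex median was -0.37, or 22.6% lower.

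Of its 4 assembly factors, 3 lay on the other side. Sdhaf1, which helps to load the iron-sulfur clusters of Sdhb, was at 7.54 and 5.68 FPKM in the controls and 10.2 and 11.1 FPKM at 6 h, with a log2 fold change of 0.63 ± 0.14 (limma adjusted p = 0.135). Sdhaf4, which assists the maturation of Sdha, was at 4.98 and 6.21 FPKM and then 7.17 and 9.42 FPKM (0.49 ± 0.19, adjusted p = 0.305). Sdhaf2, which attaches FAD to Sdha, was at 4.4 and 4.67 FPKM and then 5.19 and 5.11 FPKM (0.15 ± 0.11). These 3 were the genes of the set whose 6 h libraries lay above both control libraries. They held few reads, so counting error is larger here: Sdhaf1 had 90 and 65 reads in the controls and 120 and 135 at 6 h. Sdhaf4 had 41 and 49 and then 58 and 79 reads, and Sdhaf2 168 and 171 and then 195 and 199 reads. Sdhaf3 overlapped, at 4.71 and 4.77 FPKM in the controls and 4.20 and 4.77 FPKM at 6 h. Sdhd and the Sdhaf genes fall outside the rule by which genes were named and were chosen after their values were seen.

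**Figure D1:**
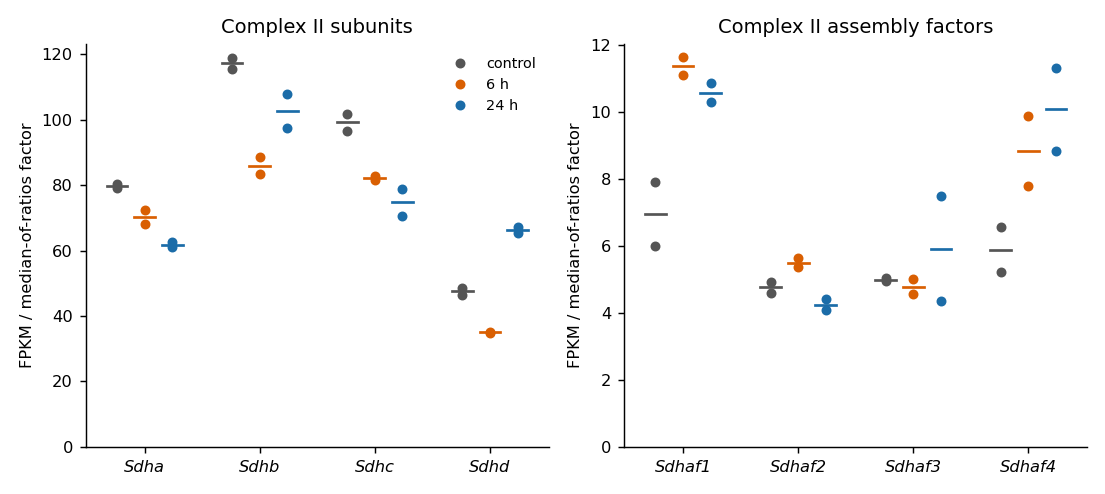
Scaled FPKM (FPKM divided by the median-of-ratios factor of the library) of the 4 complex II subunit genes (left) and their 4 assembly factors (right) in each control, 6 h and 24 h library; points are libraries and bars are means of 2. All 4 subunits are lower at 6 h than in control, while Sdhaf1, Sdhaf2 and Sdhaf4 are higher; at 24 h Sdhd lies above control and Sdha, Sdhb and Sdhc below.

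In complex V the libraries of all 15 genes lay below control without overlap, with log2 fold changes from -0.36 to -0.09 and a median of -0.26 (16.7% lower). Atp5b went from 586.5 and 534.4 FPKM to 456.6 and 473.1 FPKM, a log2 fold change of -0.27 ± 0.11 (limma adjusted p = 0.348). Atp5a1, the alpha subunit of the same catalytic head, was at 285.8 and 263.1 FPKM and then 228.8 and 231.7 FPKM (-0.25 ± 0.10). Atp5j2, a subunit of the membrane part, was at 237.8 and 267.3 FPKM and then 225.6 and 224.9 FPKM (-0.16 ± 0.12). The summed level of the complex was 2822.8 and 2775.9 FPKM in the controls and 2288.6 and 2415.1 FPKM at 6 h. The Atp5s and Atp5sl libraries overlapped with control.

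In complex I, 27 of the 37 genes with a fold change lay below control without overlap and 0 above, with a median of -0.23 and a range from -0.50 to 0.05. The lowest was Ndufs1, which carries iron-sulfur clusters in the NADH-oxidizing arm, at 30.3 and 29.1 FPKM in the controls and 20 and 21.3 FPKM at 6 h. Its log2 fold change was -0.50 ± 0.10 (limma adjusted p = 0.0957), so its libraries stood clear of each other but the difference did not pass. This gene is outside the naming rule and was picked for its value. Ndufa4 was at 254.5 and 300.9 FPKM and then 218.9 and 252.6 FPKM (-0.23 ± 0.14), Ndufb9 at 157.5 and 171.5 FPKM and then 140.6 and 143.3 FPKM (-0.21 ± 0.10), and Ndufb8 at 137.2 and 137.6 FPKM and then 110.5 and 118.1 FPKM (-0.26 ± 0.10). Overlap was found among others in Ndufa6, Ndufa13 and Ndufb6, the last with the highest value of the complex (0.05 ± 0.12).

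In complex III, 6 of 8 genes lay below without overlap (median -0.18), and Uqcrh and Uqcr10 overlapped with control. Uqcrb, which helps to form the ubiquinone-binding region, was at 265.5 and 257.2 FPKM in the controls and 231.1 and 225.2 FPKM at 6 h (log2 fold change -0.19 ± 0.10). In complex IV, 8 of 14 genes lay below without overlap, with a median of -0.21. Cox7c was at 475.2 and 453.7 FPKM and then 418.3 and 426.9 FPKM (-0.14 ± 0.11), and Cox4i1, the regulatory subunit IV, was at 314.7 and 295.2 FPKM and then 287.8 and 292.4 FPKM (-0.07 ± 0.10). The interval of the Cox4i1 difference ran from -0.33 to 0.18. Among the assembly factors 3 of 11 lay below and 3 above, with a median of -0.09, which is close to the share of all genes below (25.2%).

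Genes with related tasks did not all follow. Of the 19 genes of the TCA cycle and pyruvate dehydrogenase, 16 lay below control without overlap (median -0.26), and limma called 0. Idh3a, a subunit of the NAD-dependent isocitrate dehydrogenase, was at 27.5 and 30.7 FPKM in the controls and 14.9 and 19.6 FPKM at 6 h (log2 fold change -0.73 ± 0.14, adjusted p = 0.0977). Idh2, the NADP-dependent mitochondrial form, was at 68.4 and 58.3 FPKM and then 39.7 and 45.1 FPKM (-0.57 ± 0.14, adjusted p = 0.17). Both stood clear of control and neither passed. By contrast, of 77 mitochondrial ribosomal protein genes 20 lay below without overlap (26.0%, against 25.2% of all genes), with a median of -0.03, and 0 were called. The lowest p values there belonged to Mrps10 (15.0 and 15.8 FPKM, then 10.5 and 11.0 FPKM) and Mrps36 (18.7 and 14.2 FPKM, then 10.7 and 9.77 FPKM). The complex IV assembly list had 7 of 22 genes below and a median of -0.09, and that of complex I assembly 1 of 9 and a median of 0.00. Of the 25 genes listed as electron and nucleotide carriers, not all of which encode carriers, 10 lay below without overlap, with a median of -0.09. They included Coq7, an enzyme of ubiquinone synthesis, at 11.2 and 12.1 FPKM in the controls and 7.41 and 7.14 FPKM at 6 h (-0.61 ± 0.10, adjusted p = 0.0544), and Cyc1, cytochrome c1 of complex III, at 77.9 and 77.8 FPKM and then 59.0 and 62.5 FPKM (-0.35 ± 0.09). None of these lists was compared with the respiratory genes by a test. The remaining lists had 2 of 6 genes (complex III assembly) and 1 of 6 genes (ATP synthase assembly or regulation) below, with medians of -0.03 and -0.02. The gene below in the ATP synthase list was Usmg5, which encodes a subunit.

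**Figure D2:**
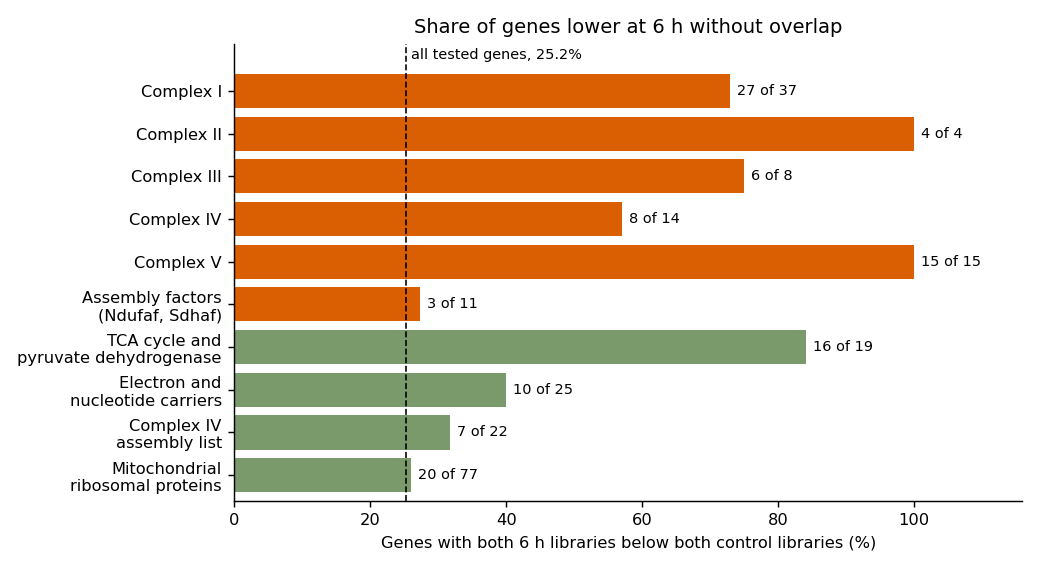
Percent of the genes with a fold change in each complex (orange) and in each list of related mitochondrial genes (green) whose 6 h libraries both lay below both control libraries; the dashed line is the share over all 11424 genes, 25.2%. Complexes II and V reach 100% and the TCA cycle list 84.2%, while mitochondrial ribosomal protein genes (26.0%) and assembly factors (27.3%) lie near the line.

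Among 17 tested regulators of mitochondrial biogenesis, limma called Esrrg alone at 6 h. It encodes the estrogen-related receptor gamma, a nuclear receptor that acts on genes of oxidative metabolism. Esrrg was at 41.7 and 41.1 FPKM in the controls, 18.7 and 18.1 FPKM at 6 h and, after 24 h, 24.0 and 20.5 FPKM. It fell by 6 h with a log2 fold change of -1.13 ± 0.11 (limma adjusted p = 0.0101) and by 24 h with -1.11 ± 0.10 (adjusted p = 0.00191). The 6 h call was lost whichever control or 6 h library was left out: the adjusted p was 0.0752 and 0.0583 without control replicate 1 or 2, and 0.117 and 0.102 without 6 h replicate 1 or 2, with log2 fold changes between -1.15 and -1.11. The coactivator gene Ppargc1a was at 5.59 and 5.74 FPKM and then 4.10 and 5.92 FPKM at 6 h, and did not pass (-0.17 ± 0.17). Nrf1 (-0.06 ± 0.17), the mitochondrial transcription factor gene Tfam (0.08 ± 0.10) and Esrra (0.15 ± 0.12) did not pass either.

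Markers of several cell types differed at the same time. Of 9 genes listed for striated and other ducts, 6 lay below control without overlap at 6 h (median -0.37). Among the 6 was Slc12a2, at 187 and 204 FPKM in the controls and 178 and 150 FPKM at 6 h. Its cotransporter also serves acinar secretion, so it does not mark ducts alone. Scnn1b and Scnn1g, subunits of the epithelial sodium channel, had log2 fold changes of -0.90 ± 0.21 and -1.20 ± 0.26, whereas Krt19 (0.54 ± 0.21) and Kcnma1 (0.46 ± 0.17) lay above control without overlap, and 0 of the 9 were called. The duct list summed to 1266.5 and 1041.6 FPKM in the controls and 1015.1 and 958.0 FPKM at 6 h. The 6 fibroblast genes all lay below (median -0.67), as did 3 of 5 endothelial genes and 2 of 5 tested granular convoluted tubule genes. In the acinar list, which leaves out Slc12a2, 0 of 8 genes did (median 0.21). Its Smgc (4.68 ± 2.57) and Bpifa2 (4.17 ± 3.67) were far lower in control replicate 1 than in replicate 2, like the sum of sublingual and parotid markers. Over all genes 25.2% lay below without overlap and 19.5% above, and lists of 5 genes are too small to set against these shares. Of 9 macrophage genes 6 lay below (median -0.28). Among these limma called Mrc1, a scavenger receptor, lower (-0.75 ± 0.11, adjusted p = 0.0459) and Cd14, a receptor for bacterial lipopolysaccharide, higher (0.99 ± 0.14, adjusted p = 0.0409), and both calls were lost whichever library was left out, with adjusted p of 0.143 to 0.282 and 0.0685 to 0.342. Their part in the result was not tested, and in whole glands fewer cells of a type and less RNA per cell cannot be told apart.

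Isoforms with restricted expression differed between libraries of a group, as adipocyte genes did. Cox8b, found in muscle and brown fat, was at 1.12 and 17.7 FPKM in the controls, 1.36 and 7.45 FPKM at 6 h and, after 24 h, 42.6 and 20.9 FPKM. Cox7a1, the heart and muscle isoform of subunit VIIa that brown fat also expresses, was at 5.98 and 18.7 FPKM, 5.18 and 6.73 FPKM, and 35.7 and 26.6 FPKM. Control replicate 2 was the high library of its group in both genes. Ucp1, the uncoupling protein of brown fat, was at 0.00 and 20.2 FPKM in the controls, 3.71 and 7.01 FPKM at 6 h and, after 24 h, 1.15 and 0.00 FPKM. Adipoq was at 1.18 and 28.0 FPKM, 2.07 and 24.8 FPKM, and 28.1 and 13.7 FPKM. In control and at 6 h the higher library was the same in Cox8b, Cox7a1, Ucp1 and Adipoq. At 24 h Cox8b and Cox7a1 had their highest deposited values and Ucp1 was near 0. Those 24 h values were taken to come by the other route, and both isoform genes are short (363 bases for Cox8b, 366 for Cox7a1). Short genes outside the set were also higher at 24 h, as described below. Skeletal muscle markers summed to 4.27 and 5.19 FPKM in the controls, 4.69 and 4.61 FPKM at 6 h, and after 24 h to 13.7 and 17.4 FPKM; of these 10 genes, Pvalb was at 0.00 FPKM in both 24 h libraries. The part of fat or muscle in these values was not tested, and neither isoform passed the test in either comparison. With control replicate 2 left out, the log2 fold change of Cox8b at 6 h turned from -0.49 to 1.08. That of Cox7a1 at 24 h went from 1.21 (limma adjusted p = 0.131) to 1.97. With the length trend of other genes removed, the 24 h values were 0.68 for Cox7a1 (limma adjusted p = 0.36) and 1.54 for Cox8b (adjusted p = 0.374).

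The other restricted isoforms were rare. Cox6b2, the testis isoform, was at 1.31 and 0.822 FPKM in the controls, 1.20 and 1.03 FPKM at 6 h and, after 24 h, 4.44 and 1.60 FPKM, and Ndufa4l2, a hypoxia-responsive relative of Ndufa4, was at 2.52 and 1.14 FPKM, 1.54 and 1.40 FPKM, and 2.34 and 3.9 FPKM. Cox4i2 and the muscle isoform Cox6a2 stayed under 1 FPKM except for Cox6a2 in 24 h replicate 2 (1.30 FPKM). Cox7b2 and Cox8c were listed at 0 in all 6 libraries. The 7 ubiquitous counterparts were between 88.8 and 380.7 FPKM in control replicate 1, and all 7 lay below control without overlap at 6 h. They were Cox4i1, Cox6a1, Cox6b1, Cox7a2, Cox7b, Cox8a and Ndufa4, with log2 fold changes from -0.42 (Cox7b) to -0.07 (Cox4i1).

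**Figure D3:**
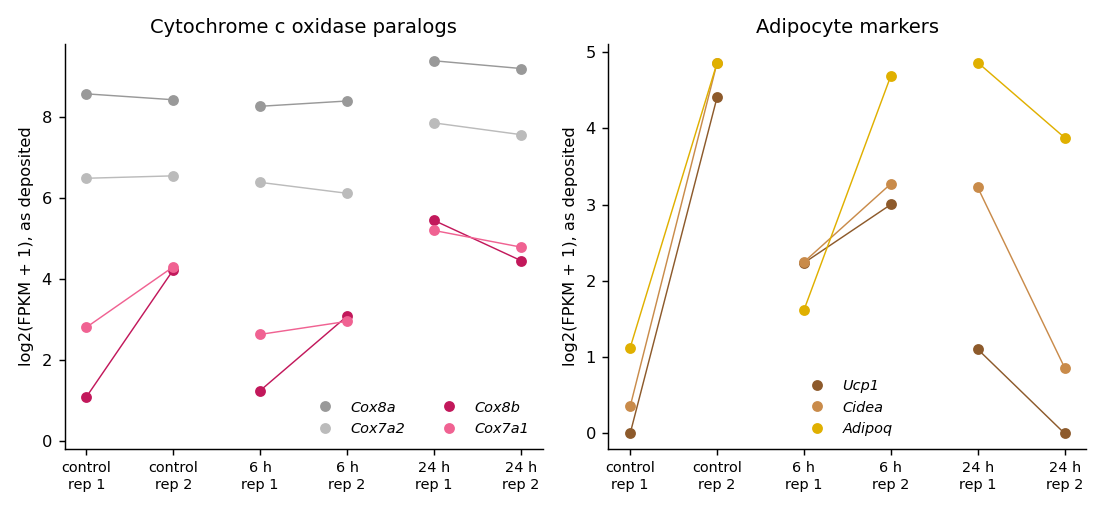
Left, log2(FPKM + 1) of the ubiquitous isoform genes Cox8a and Cox7a2 (grey) and the restricted isoform genes Cox8b and Cox7a1 (pink) in each library; right, the same for the adipocyte genes Ucp1, Cidea and Adipoq. Points are libraries, and lines join the 2 libraries of a group for reading only. Values are as deposited, and those at 24 h were taken to come by another quantification route. Cox8b, Cox7a1 and the adipocyte genes are all higher in control replicate 2 than in replicate 1, and at 24 h Cox8b and Cox7a1 are at their highest while Ucp1 is at 1.15 and 0.00 FPKM.

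At 24 h many respiratory complex genes were higher than in control, most of them short. With median-of-ratios scaling, limma called 44 of the 91 genes higher and 4 lower, and 43 did not pass, where 9.3% of all genes were called higher and 6.32% lower. The median log2 fold change was 0.48 (39.6% higher) against 0.00 over all genes. Without 24 h replicate 1, 24 h replicate 2 or control replicate 1 the calls were 18, 24 and 27, all higher. In the absence of both control replicate 1 and 24 h replicate 2, limma called 0 of the set, with 53 genes at an unadjusted p under 0.05. Time and route cannot be told apart at 24 h, because the values of both 24 h libraries have the other form. Markers of other cells also differed at 24 h: 5 of 9 macrophage genes were called higher (median 0.96). Of 5 tested granular convoluted tubule genes 4 were called lower (median -1.59), while Klk1 had a log2 fold change of 1.01 ± 0.30 and did not pass. The list held 7 tubule genes, and Klk1b26 and Ren1 got no fold change. Klk1b26 was at 0.186 and 0.194 FPKM in the controls and 21401.8 and 23309.5 FPKM at 24 h. Ren1 was at 0.00 FPKM in the controls and 9.09 and 8.48 FPKM at 24 h. The tubule list summed to 39305.0 and 31344.5 FPKM in the controls and 47346.2 and 42884.4 FPKM at 24 h. The part of these markers in the result was not tested.

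The 24 h differences depended on transcript length in the set and in all other genes. Lengths were taken from the read steps of the control and 6 h values, and the lengths used by the 24 h route are not known. They departed from the exon totals of GENCODE in both directions. Ndufa11 had 2661 bases against 1092 of exons, and Atp5l 171 against 6443. Of the 32 genes under 600 bases, 26 were called higher and 0 lower, with a median log2 fold change of 0.79, and of the 288 other genes of that length 115 were called higher and 16 lower, with a median of 0.55. From 600 to 1000 bases the medians were 0.44 (25 genes) and 0.18 (736 other genes), and from 1000 to 1500 bases 0.17 (15 genes) and 0.03 (1241 other genes). At 1500 bases and above both medians were -0.02 (19 genes and 9067 other genes). With the length trend of other genes removed, the set had 23 calls higher and 4 lower and a median of 0.18. At 6 h the same 4 length classes had medians of -0.19, -0.21, -0.29 and -0.25.

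**Figure D4:**
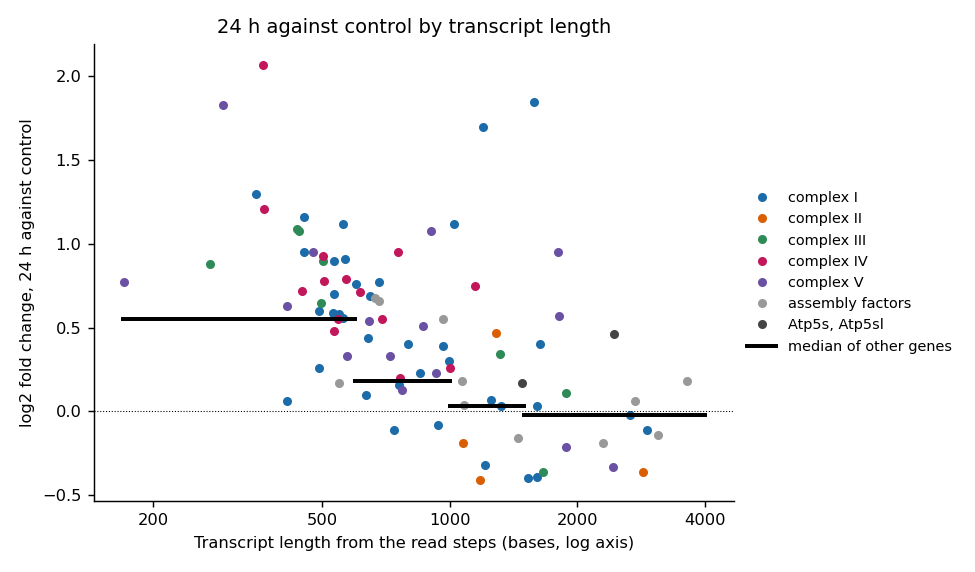
Log2 fold change at 24 h against control, after median-of-ratios scaling, against transcript length on a log axis. Each point is a gene with a fold change, coloured by complex, and lengths in bases are from the read steps. Horizontal bars give the median of all other genes in the same length class. Points and bars both fall from short to long transcripts, the bars from 0.55 under 600 bases to -0.02 at 1500 bases and above.

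Complexes III and IV had the highest medians at 24 h, 0.77 and 0.73, with 5 of 8 and 9 of 14 genes called higher. With the length trend removed their medians were 0.29 and 0.36, with 3 and 2 genes called higher. Uqcrb was at 278.1 and 271.5 scaled FPKM in the controls and 516.4 and 511.3 scaled FPKM at 24 h (log2 fold change 0.90 ± 0.09, limma adjusted p = 0.00283), and its value was 0.47 with the length trend removed (adjusted p = 0.0245). Cox7c was at 497.7 and 478.8 scaled FPKM and then 820.8 and 790.2 scaled FPKM (0.72 ± 0.10, adjusted p = 0.00713). With the length trend removed Cox7c was at 0.26 and no longer passed (adjusted p = 0.147), and without 24 h replicate 1 its adjusted p was 0.0509. All 14 genes of complex IV lay above control without overlap at 24 h, where 31.2% of all genes did so. Their median length was 557 bases. Among other genes, 182 of the 288 under 600 bases and 351 of the 736 from 600 to 1000 bases lay above without overlap. In complex V, 9 of 15 genes were called higher (median 0.54), and in complex I 18 of 37 were called higher and 2 lower (median 0.40). With the length trend removed the median of complex V was 0.14, with 5 genes called higher. That of complex I was 0.18, with 11 called higher and 3 lower. Among the assembly factors Sdhaf1 alone was called, at 10.3 and 10.8 scaled FPKM against 7.90 and 6.00 in control (0.55 ± 0.14, adjusted p = 0.0448). That call was kept in 1 of the 6 fits that left out a library, where the adjusted p reached 0.213, and was lost with the length trend removed (0.43, adjusted p = 0.0863).

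The 6 called genes with the largest rise were 5 of complex I and 1 of complex V. Ndufv3, a small subunit of the NADH-oxidizing arm (chromosome 17, 31520115 to 31531331, GRCm38), was at 30.8 and 27.5 scaled FPKM in the controls and 103 and 112 scaled FPKM at 24 h (log2 fold change 1.85 ± 0.11, limma adjusted p = 0.000409). Ndufa7 was at 28.6 and 29.1 scaled FPKM and then 94.4 and 97.6 scaled FPKM (1.70 ± 0.13, adjusted p = 0.001). Both had lengths over 1000 bases from the read steps, and with the length trend removed their log2 fold changes were 1.86 and 1.66. Atp5k, the e subunit that helps ATP synthase to dimerize, was at 71.5 and 77.6 scaled FPKM and then 267 and 267 scaled FPKM (1.83 ± 0.12, adjusted p = 0.000626). Its length from the read steps was 292 bases, and its value was 1.22 with the length trend removed. Ndufa3, Ndufb4 and Ndufs8 rose by 1.30, 1.16 and 1.12 on the log2 scale, and by 0.76, 0.70 and 1.03 with the trend removed. These 6 calls were kept in each of the 6 fits that left out a library. At 6 h the libraries of all 6 genes had lain below control without overlap, with log2 fold changes from -0.41 (Ndufa7) to -0.15 (Ndufb4).

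The 4 genes that fell at 24 h were Sdhc, Sdha, Ndufs4 and Ndufv1, all with lengths over 1000 bases from the read steps. Sdhc was at 96.5 and 101.7 scaled FPKM in the controls and 78.8 and 70.6 scaled FPKM at 24 h (log2 fold change -0.41 ± 0.09, limma adjusted p = 0.0381). Sdha was at 80.4 and 79.0 scaled FPKM and then 61.1 and 62.5 scaled FPKM (-0.36 ± 0.08, adjusted p = 0.0388). Ndufs4, an accessory subunit near the NADH-oxidizing arm whose loss causes a Leigh-like encephalopathy in mice, was at 33.0 and 33.9 scaled FPKM and then 26.1 and 24.1 scaled FPKM (-0.40 ± 0.09, adjusted p = 0.0364). Ndufv1, which binds NADH and FMN, was at 48.4 and 50.3 scaled FPKM and then 38.6 and 36.5 scaled FPKM (-0.39 ± 0.09, adjusted p = 0.0352). In all 4 genes both 24 h libraries lay below both control libraries, as did both 6 h libraries on the deposited scale. The 4 calls were lost whichever of the 6 libraries was left out, with adjusted p from 0.0651 to 0.158 (Ndufs4), 0.0659 to 0.144 (Ndufv1), 0.0685 to 0.134 (Sdha) and 0.0749 to 0.145 (Sdhc). With the length trend removed Sdha was at -0.32 and did not pass (adjusted p = 0.0593). Without scaling their log2 fold changes were -0.17 (Ndufs4), -0.15 (Ndufv1), -0.12 (Sdha) and -0.16 (Sdhc), and none passed.

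Complex II genes went in both directions at 24 h. Sdhd rose to 65.2 and 67.2 scaled FPKM from 46.4 and 48.7 scaled FPKM (log2 fold change 0.47 ± 0.08, limma adjusted p = 0.0168), while Sdha and Sdhc fell and Sdhb did not pass (-0.19 ± 0.10). The Sdhd call was kept in 3 of the 6 fits that left out a library, with adjusted p from 0.0419 to 0.0883, and its value was 0.44 with the length trend removed. Genes of complexes III and V with 1500 bases or more also went both ways. Lower were Uqcrc1, a core protein of complex III, at -0.36 ± 0.09 (adjusted p = 0.051), Atp5a1 at -0.33 ± 0.09 (adjusted p = 0.062) and Atp5b at -0.21 ± 0.10 (adjusted p = 0.225). Higher were Uqcrc2, the other core protein (0.11 ± 0.09, not passing), Atp5f1, a subunit of the peripheral stalk (0.57 ± 0.09, adjusted p = 0.0127, kept in 3 of the 6 fits that left out a library), and Atp5c1, the gamma subunit that turns inside the catalytic head. Atp5c1 was at 121.2 and 125.7 scaled FPKM in the controls and 238.1 and 239.4 scaled FPKM at 24 h, and rose by 0.95 ± 0.08 (adjusted p = 0.00173), a call kept in all 6 fits that left out a library. Atp5c1, Atp5f1, Uqcrc1, Uqcrc2 and Sdhd were named here after their values were seen.

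Ndufs5, an accessory subunit of complex I (chromosome 4, 123712710 to 123718202, GRCm38), was listed at 0 in all 4 control and 6 h libraries and at 75.7 and 67.8 FPKM at 24 h. It was the only tested gene of the set that all libraries of a route listed under 0.2 FPKM while the other route did not, and no fold change is given. The untested Cox6a2 had the same pattern at lower values. The sources used here do not give how reads shared with near-identical copies were assigned, and values of genes with such copies are uncertain by either route.

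The related lists at 24 h followed neither the short nor the long genes throughout. Genes that limma called are given as risen or fallen, and over all genes 9.3% were called higher and 6.32% lower. Of the 19 TCA cycle genes, 16 lay below control without overlap (30.1% of all genes did so), 3 fell and 0 rose, with a median of -0.23. Among those that fell was Dlat, a subunit of pyruvate dehydrogenase (-0.50 ± 0.10, limma adjusted p = 0.02). Among 77 mitochondrial ribosomal protein genes 10 rose and 1 fell (median 0.07), led by Mrpl52 at 1.32 ± 0.13 and Mrps18c at 0.99 ± 0.09. Of 22 complex IV assembly genes 3 rose and 0 fell. Cox16 was at 1.07 and 0.999 FPKM in the controls, 0.738 and 1.25 FPKM at 6 h and, after 24 h, 31.4 and 22.6 FPKM, and Sco2, a copper chaperone, was at 0.637 and 0.222 FPKM, 0.792 and 1.04 FPKM, and 8.11 and 9.09 FPKM, so that neither passed 1.25 FPKM in the control and 6 h libraries. Of the 25 genes of the carrier list 2 rose, Coq7 (0.98 ± 0.10) and Higd2a (0.79 ± 0.09), neither of which encodes a carrier, and 1 fell. In the smaller assembly lists the called genes were Tmem126a (0.53 ± 0.12) for complex I and Uqcc2 (0.72 ± 0.12) for complex III. In the list of ATP synthase assembly or regulation it was Usmg5 (0.59 ± 0.12), which encodes a subunit and not an assembly factor. Of the 17 regulators 1 rose, Gabpb1 (0.93 ± 0.17), and 2 fell. Several of these calls were lost with single libraries left out: Dlat without control replicate 2 or either 24 h replicate (adjusted p = 0.0705, 0.113 and 0.107), and Uqcc2 without either 24 h replicate (0.0717 and 0.101). Tmem126a, Usmg5 and Gabpb1 were lost whichever control or 24 h library was left out, with adjusted p up to 0.164, 0.124 and 0.133. With the length trend removed, Usmg5 was at 0.03, Uqcc2 at 0.28 and Tmem126a at 0.29, and none of these 3 passed (adjusted p = 0.869, 0.169 and 0.156).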

How the data were processed

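RNA sequencing of 6 salivary gland libraries was deposited by the authors as a table of FPKM per gene. Per the submitters' processing notes, TopHat2 2.1.0 and Cufflinks 2.2.1 were used with mm10. Of 24421 entries, 27 with a date number for a symbol were left out. Of 14471 genes above 0 in all 4 control and 6 h libraries, 99.98% lay on whole reads times a value set by library size and the smallest whole-number length from 150 to 29999 bases (tolerance 0.02 reads), so a length may be short by a common factor. The 24 h values had at most 6 digits (99.99 and 100.0% of values, 34.38 to 35.45% in the other libraries).

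limma 3.58.1 in R 4.3.3 fitted log2(FPKM + 1) with a mean per group over all 6 libraries, empirical Bayes with a trend, two-sided tests and Benjamini-Hochberg adjustment at 0.05, for the 11674 genes averaging at least 1 FPKM. Adding 1 understates changes of low genes. For 24 h, FPKM was divided by median-of-ratios factors from 11387 genes (0.922 to 1.138). The 250 genes under 0.2 FPKM in every library of a route got no fold change and left 11424, over which shares of all genes are given; at 6 h they stayed in the adjustment. Overlap at 6 h was read on deposited FPKM and at 24 h on scaled FPKM. Values after ± are SE of the fit. The fit was tested on simulated data. Positions are from GENCODE M21 (GRCm38).

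The genes named were the 3 highest in control of each complex and of the assembly factors, calls at 6 h, the 6 largest calls in each direction at 24 h, isoform pairs, genes at 0 by a route, and the 2 smallest p of each related list and comparison. The members and lists were chosen with earlier results of these data known. Alternatives covered scaling, the added value, the filter, the groups fitted, the variance prior, a replicate block and libraries left out. Some genes that this rule picks are not reported here.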

Additional observations from a re-analysis of the deposited data

Results flagged for a closer look

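Of the 91 respiratory complex genes with a fold change, 45 (49.5%) had both 6 h libraries below and both 24 h libraries above both control libraries, and 1 (1.1%) went the other way. Of all 11424 genes, 766 (6.71%) lay below at 6 h and above at 24 h. The opposite direction at the 2 times singled this out. The difference was not tested, both times share the control libraries, and time and quantification route cannot be told apart at 24 h. Median length was 758 bases in the set and 2719 over all genes, and 182 of 288 other genes under 600 bases lay above at 24 h. Taken singly, 63 of the 91 genes lay below at 6 h and 63 above at 24 h. The count of 45 is therefore no evidence of a link between the 2 times.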

How the results depend on the processing

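At 6 h, 0 genes of the set were called under each of the 15 alternatives, and the median log2 fold change ran from -0.26 to -0.16 with single libraries left out (-0.16 without 6 h replicate 1). At 24 h the 48 calls became 27 with quantile normalization (20 higher and 7 lower), 27 with the length trend removed and 0 without control replicate 1 and 24 h replicate 2 together, and 18 to 39 with single libraries left out; unscaled FPKM gave 57, all higher. The 24 h median of 0.48 became 0.73 for unscaled FPKM (0.20 over all genes), 0.21 with quantile normalization, 0.52 with 0.1 added and 0.18 with the length trend removed, and ran from 0.45 to 0.50 with single libraries left out. The length trend and the fit on reads were chosen after seeing the data.

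With the replicate number as a block, 0 genes were called at 6 h and 45 at 24 h (44 higher and 1 lower, so that Sdha, Sdhc and Ndufs4 were at an adjusted p of 0.0517, 0.0505 and 0.0506, and Ndufaf2 passed at 0.0468); over the 11674 tested genes 104 were called at 6 h, against 118 without the block. The labels do not say that numbers pair libraries; deviations of same-numbered libraries correlated across all genes at 0.48 (control and 6 h), 0.34 (control and 24 h) and 0.19 (6 h and 24 h), and across the set at 0.68, -0.42 and -0.31.

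Of the named genes' values, 510 kept direction and call at 6 h and 534 at 24 h, 5 and 157 lost the call, 0 and 6 gained it and 10 and 8 changed sign. At 6 h, with single libraries left out, Ndufa4l2 ran from -0.51 to 0.21 (0.21 without control replicate 1, alone or with 24 h replicate 2), Cox8b from -2.07 to 1.08 (0.43 without 6 h replicate 1), Ndufaf2 reached 0.19 and 0.18 without control replicate 2 or 6 h replicate 1, Ndufaf1 -0.06 and -0.08 without control replicate 2 or 6 h replicate 2, and Cox6b2 -0.13 and -0.02 without control replicate 2 or 6 h replicate 1. At 24 h, unscaled FPKM put Sdhb at 0.05, Atp5b at 0.04 and Ndufaf1 at 0.06. Quantile normalization put Cox6a1 at -0.05, Cox4i1 at -0.34 and Cox7b at -0.06. Cox4i1 was at -0.04 with the length trend removed and Ndufaf3 was between -0.01, without 24 h replicate 1, and 0.49, without control replicate 1 and 24 h replicate 2. The causes were not tested. Depth at 24 h is unknown.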
